A study of Mus musculus with 4 samples.

Results

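The genes described here are the mitochondrial import genes and the mitochondrial carrier genes of the mouse, and the question is which of them carry the transcription factor Deaf1 at a gene end in C2C12 cells. They were chosen by symbol alone: every protein-coding gene whose symbol starts with Timm or Tomm (26 import genes) or with Slc25a (47 carriers), which gives 73 of the 21887 protein-coding genes on chromosomes 1 to 19, X and Y. A gene was counted as bound when a peak lay within 1 kb of its first or last annotated base. The rule itself used no measured value, but members, lists and motifs were chosen with earlier results of these data known.

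Nearly all mitochondrial proteins are made in the cytosol and brought in through membrane complexes. The TOM complex (Tomm genes) is the gate in the outer membrane. Behind it, the TIM23 complex moves proteins with a cleavable presequence into the matrix or inner membrane, while the small TIM chaperones hand hydrophobic proteins to the TIM22 complex. Most Slc25a carriers are themselves cargo of the TIM22 route and move nucleotides, organic acids, amino acids, cofactors and other small solutes across the inner membrane. Deaf1 is a DNA-binding factor with a SAND domain, a fold known to recognise short sequences with the core TTCG.

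Deaf1 occupancy had been profiled by chromatin immunoprecipitation and sequencing (ChIP-seq) in C2C12, an established line of mouse myoblasts, with 2 libraries from an anti-Deaf1 antibody and 2 input libraries without antibody. All cells were grown in the same medium with serum. The labels give no treatment, genotype change or second condition, and do not say whether the replicates came from separate cultures. They describe formaldehyde fixation and sonication and also call the assay native, a conflict that the labels do not settle. Peak lists hold no expression, so the myoblast label was not checked against marker genes.

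The list of replicate 1 had 1860 peaks and that of replicate 2 had 3126, and the authors' combined list held 1550 regions. The depth behind a peak is the number of ChIP fragments stacked at its summit, which was recovered from the deposited fold and p of each peak. Summits were covered by a median of 22.0 and 23.0 fragments in replicates 1 and 2, over a lowest expected background of 1.80 and 2.09. Fold enrichment below is the authors' value for each peak: how many times the ChIP signal at the summit exceeds the background expected locally. The irreproducible discovery rate (IDR) is the authors' global value for the pair of libraries. It is the expected share of irreproducible regions among those ranked at least as high, and not a chance for the single region. The combined list was not cut at an IDR of 0.05. Its median IDR was 0.101, and 608 of the 1550 regions (39.2%) were at or under 0.05. With 1 group of 2 libraries and with genes that are not replicates, counts of genes are given beside the count over all genes, and no test was run.

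Deaf1 regions were found at import genes far more often than the share over all genes, and at carriers about as often. In the combined list, 9 of 26 import genes (34.6%) had a region at an end, against 3 of 47 carriers (6.38%) and 1517 of 21814 other protein-coding genes (6.95%). Over all 21887 genes the share was 6.99%. The bound import genes were Tomm20, Tomm22, Tomm70a, Tomm6, Timm17a, Timm23, Timm29, Timm10b and Timmdc1. The bound carriers were Slc25a11, Slc25a16 and Slc25a46. Timmdc1 has the prefix but is known as an assembly factor of respiratory complex I, and without it 8 of 25 import genes (32.0%) were bound.

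In the list of each single library import genes again had the highest share, while the carriers' share differed between the libraries. Replicate 1 had peaks at 9 import genes (34.6%) and 3 carriers (6.38%), where 7.53% of all genes had one. Replicate 2 had peaks at 15 import genes (57.7%) and 10 carriers (21.3%), where 11.2% of all genes had one. The carriers' share was thus close to that of all genes in replicate 1 and in the combined list, and above it in replicate 2. Replicate 2 had a peak at each of the 12 members in the combined list, and no member had a peak in replicate 1 alone. A further 13 members had a peak in replicate 2 only, and 48 had none in either list within 1 kb of an end.

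**Figure D1:**
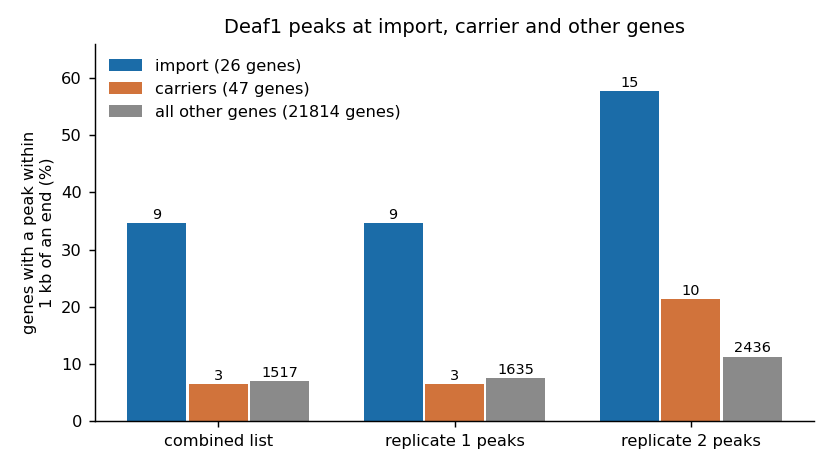
Share of genes with a Deaf1 peak within 1 kb of an end (y axis, percent) for the combined list and each replicate's own list, in import genes, carriers and all other protein-coding genes; the number on each bar is the count of genes. Import genes stand at 34.6% in the combined list against 6.38% of carriers and 6.95% of other genes.

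The TOM receptors, which meet precursor proteins at the mitochondrial surface, had 3 of 4 genes in the combined list, and Tomm20l had no peak. This was the highest proportion among role groups with more than 1 gene, next to 2 of 3 for the TIM22 carrier translocase. The groups are small and were drawn by hand, so the order rests on single genes. Counts by role are to be read against 6.99% of all genes in the combined list and 11.2% in replicate 2. Tomm22 couples the receptors to the channel. Its region on chromosome 15 (79670747 to 79670932) had 35 fragments at the summit in replicate 1 (95% exact Poisson interval 24.4 to 48.7) and 58 in replicate 2 (44.0 to 75.0). The fold enrichment was 7.98 and 16.9, a mean of 12.4 ± 6.32 (SD, n = 2), so the libraries differed widely in fold. The local background was 3.51 fragments in replicate 1 and 2.49 in replicate 2.

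Tomm20, the receptor that binds presequences, had 25 fragments in replicate 1 (16.2 to 36.9) and 40 in replicate 2 (28.6 to 54.5). Its region lay on chromosome 8 (126945822 to 126946068), with folds of 9.28 and 13.3, a mean of 11.3 ± 2.82 (SD, n = 2). Tomm70a, the receptor that docks chaperone-bound precursors such as carriers, was weaker, with 18 fragments (10.7 to 28.4) and 25 fragments (16.2 to 36.9). Its region on chromosome 16 (57121629 to 57121750) had folds of 5.23 and 8.42, a mean of 6.82 ± 2.26 (SD, n = 2), and an IDR of 0.240. For each receptor the interval of replicate 1 overlapped that of replicate 2.

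The bases just before the start are shown for 5 bound import genes whose replicate 2 summit fell inside the promoter window of the reference (250 bases before to 50 after the start), to show the bases at or next to those summits. They come from RefSeq on GRCm38.p6 and are read 5′ to 3′ on the strand of the gene. They end at the last base before the annotated start and leave out bases inside an annotated gene span. Timmdc1 also had its summit in the window, but the bases next to its listed start lie inside its own span, so none are printed. Timm10b, with a lower mean fold than the genes shown, was not printed. Capitals mark TTCG or its complement CGAA, and the ETS-type sequence CCGGAAG or its complement CTTCCGG.
Tomm22 (chr15:79670718-79670867, + strand): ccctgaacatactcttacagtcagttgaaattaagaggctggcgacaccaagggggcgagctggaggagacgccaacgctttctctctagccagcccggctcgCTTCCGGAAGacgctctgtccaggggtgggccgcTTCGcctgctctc
Tomm20 (chr8:126945922-126946071, - strand): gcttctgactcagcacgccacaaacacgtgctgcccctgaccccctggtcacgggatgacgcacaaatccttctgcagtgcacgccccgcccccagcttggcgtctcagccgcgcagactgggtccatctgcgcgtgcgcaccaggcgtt
Tomm70a (chr16:57121564-57121713, + strand): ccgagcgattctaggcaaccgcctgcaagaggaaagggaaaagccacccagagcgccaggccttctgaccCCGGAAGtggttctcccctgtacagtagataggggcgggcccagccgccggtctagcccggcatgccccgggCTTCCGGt
Timm17a (chr1:135313738-135313887, - strand): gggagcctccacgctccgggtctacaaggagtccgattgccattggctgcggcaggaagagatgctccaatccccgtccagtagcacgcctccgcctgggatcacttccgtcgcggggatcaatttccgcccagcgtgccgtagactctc
Timm23 (chr14:32201892-32201929, - strand): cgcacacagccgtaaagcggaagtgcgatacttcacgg

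In the Tomm22 sequence the replicate 2 summit lay 31 bp before the start, with the centre of the nearest CCGGAAG match 10.0 bp away and that of the nearest TTCG 19.5 bp away. The CTTCCGGAAG there holds both orientations of the ETS-type motif, which overlap. At Tomm70a the summit was 33 bp before the start and 28.0 bp from such a match, and the promoter window had no TTCG. The Tomm20 summits lay 5 and 16 bp inside the gene, just past the bases printed. Its window had no CCGGAAG, and its only TTCG lay 198 bp from the summit.

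Of the channel and the small TOM subunits, Tomm6 was in the combined list, Tomm40 and Tomm5 had a peak in replicate 2 only, and Tomm7 and Tomm40l had none. Tomm6 is a small stabilising subunit and had the highest mean fold of any member, although Tomm22 was higher in replicate 2. Its region on chromosome 17 (47688016 to 47688182) had 34 fragments in replicate 1 (23.5 to 47.5) and 49 in replicate 2 (36.3 to 64.8), with folds of 12.5 and 15.5, a mean of 14 ± 2.12 (SD, n = 2). By mean fold it ranked 117th of the 1550 regions. Its IDR was 0.0100. Its summit was farther inside the gene than that of any other bound import gene, at 305 bp past the start in replicate 1 and 285 bp in replicate 2. Ends of Prickle4 and Frs3 lay 292 and 409 bp from the region. Tomm40, the channel itself, had 21 fragments in replicate 2 (13.0 to 32.1) and a fold of 7.12. Tomm5 had 26 fragments (17 to 38.1) over a background of 4.84, a fold of 4.63. Tomm34, a cytosolic protein, had no peak.

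In the TIM23 group, 2 of the 5 channel and receptor genes were bound. Timm17a, a channel subunit, had 25 fragments (16.2 to 36.9) and 32 fragments (21.9 to 45.2). Its folds of 8.45 and 8.46 were the closest between libraries of any bound member. Its region lay on chromosome 1 (135313720 to 135313834) and had an IDR of 0.0339. Its paralogue Timm17b, on the X chromosome, had no peak. Timm23, the subunit the complex is named for, had 24 fragments in replicate 1 (15.4 to 35.7) and 34 in replicate 2 (23.5 to 47.5). Its folds of 5.54 and 11.3 differed more than its pileups, with local backgrounds of 3.51 and 2.09 fragments. That region, on chromosome 14 (32201854 to 32202010), also overlapped an end of Parg, whose end was nearer to the summit. Timm50 and Timm21 had no peak. Timm44, which tethers the import motor to the channel, had 21 fragments in replicate 2 only (13.0 to 32.1) and a fold of 7.12.

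All 3 genes of the TIM22 carrier translocase had a peak in replicate 2, and Timm29 and Timm10b were in the combined list. Timm29 had 28 fragments (18.6 to 40.5) and 44 fragments (32.0 to 59.1), with folds of 10.4 and 11.5, a mean of 10.9 ± 0.838 (SD, n = 2), and an IDR of 0.0138. The region on chromosome 9 (21592747 to 21592959) began 25 bp inside Timm29 and overlapped an end of Yipf2. Timm10b, which ties the small TIMs to the complex, was the weakest bound import gene, with 18 fragments (10.7 to 28.4) and 25 fragments (16.2 to 36.9). Its folds were 5.23 and 5.34 and its IDR was 0.513, and its region on chromosome 7 (105640333 to 105640591) overlapped an end of Arfip2. Timm22, the channel of the complex, had a peak of 13 fragments (6.92 to 22.2) in replicate 2 only, the lowest pileup among the members' peaks.

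None of the 6 small TIM chaperones was in the combined list, a number too small to tell from the share of 6.99% over all genes. A peak in replicate 2 only was seen at 2 of the 6, against 4.26% of all genes. Timm10 had 26 fragments in replicate 2 (17 to 38.1) and a fold of 8.74, the highest among members seen in that library alone. The Timm10 peak lay 66 bp from an end of Smtnl1. Timm8b had 21 fragments (13.0 to 32.1) and a fold of 5.64, at a peak that also overlapped an end of Sdhd, a subunit gene of respiratory complex II. Timm9, Timm13, Timm8a1 and Timm8a2 had no peak. Timmdc1 had 23 fragments (14.6 to 34.5) and 37 fragments (26.1 to 51.0), with folds of 6.60 and 7.81 and an IDR of 0.0479, at a region on chromosome 16 (38522592 to 38522854).

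The 3 bound carriers had between 15 and 25 fragments at their summits, and each had a lower fold in replicate 2 than in replicate 1. The IDR was 0.302 at Slc25a11, 0.295 at Slc25a16 and 0.513 at Slc25a46. Slc25a11 exchanges 2-oxoglutarate for malate and had 22 fragments in replicate 1 (13.8 to 33.3) and 19 in replicate 2 (11.4 to 29.7), with folds of 8.21 and 6.48. Its region on chromosome 11 (70647289 to 70647605) overlapped the end of the annotated span, 463 bp before the start listed in the promoter table by its replicate 2 summit, and lay 59 bp from an end of Rnf167. Slc25a16 is linked to coenzyme A transport and had 24 fragments (15.4 to 35.7) and 25 fragments (16.2 to 36.9), with folds of 6.88 and 5.34, at a region on chromosome 10 (62920542 to 62920685). Slc25a46, an outer membrane member of the family involved in mitochondrial shape, had 15 fragments (8.40 to 24.7) and 21 fragments (13.0 to 32.1), with folds of 5.65 and 4.52. Its region on chromosome 18 (31609891 to 31609986) lay 546 bp from the nearer end of its span, inside it, the farthest of any bound member. The nearest member outside the limit of 1 kb was Slc25a30 in the combined list, 2687 bp from a region, and Slc25a38 in replicate 2, 1476 bp from a peak.

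Among carriers by role, none of the 8 genes for adenine nucleotide and phosphate transport had a peak in either list, a number too small to tell from the shares of 6.99% (combined list) and 11.2% (replicate 2) over all genes. These include Slc25a4, Slc25a5 and Slc25a31, the ADP/ATP exchangers, and Slc25a3, the phosphate carrier. Of 9 cofactor and nucleotide carriers, Slc25a16 was in the combined list (6.99% of all genes) and 4 had a peak in replicate 2 only (4.26% of all genes). Among them were Slc25a17 of peroxisomes (29 fragments, 19.4 to 41.6, fold 6.63), the S-adenosylmethionine carrier Slc25a26 (26 fragments, 17 to 38.1, fold 6.92) and the folate and FAD carrier Slc25a32 (24 fragments, 15.4 to 35.7, fold 6.41). The Slc25a32 peak overlapped an end of Dcaf13. The branched-chain amino acid carrier Slc25a44 (21 fragments, 13.0 to 32.1, fold 7.12) was the only one of 9 amino acid carriers with a peak. This was near the replicate 2 share of 11.2% over all genes. Of the glutathione carriers, Slc25a39 had a replicate 2 peak (17 fragments, 9.90 to 27.2, fold 4.61) and Slc25a40 had none. Slc25a53 had 2 peaks in replicate 2, the stronger with 22 fragments (13.8 to 33.3) and a fold of 7.45. The iron carriers Slc25a28 and Slc25a37 had none.

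The 13 members seen in replicate 2 alone had lower pileups than the 12 in the combined list. Their median was 21.0 fragments (13 to 29) and a fold of 6.63 (3.90 to 8.74), against 33.0 fragments (19 to 58) and a fold of 8.44 (4.52 to 16.9) in the same library. Over all protein-coding genes these medians were 20 fragments and 5.86 for 932 genes with a replicate 2 peak alone, and 33.0 fragments and 8.74 for 1529 genes of the combined list. Genes of this kind made up 23.1% of import genes, 14.9% of carriers and 4.26% of all genes.

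**Figure D2:**
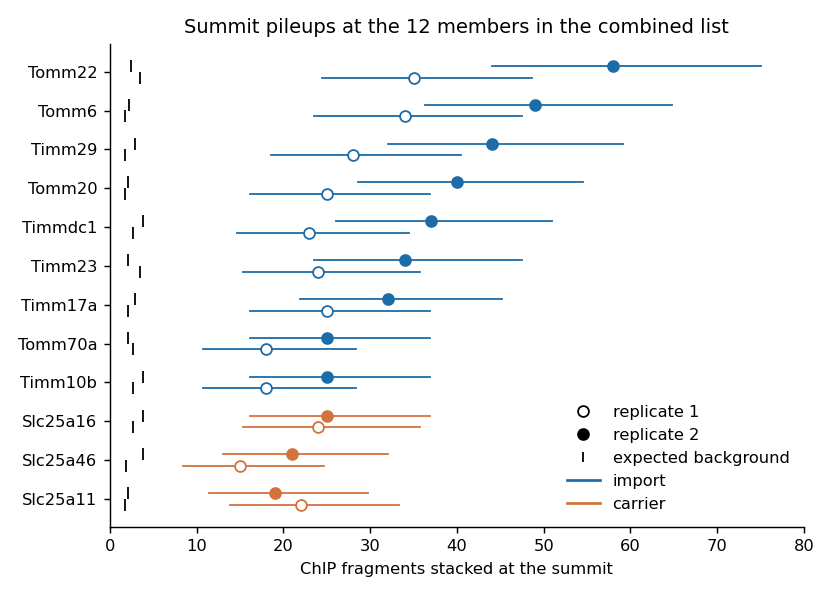
ChIP fragments stacked at the summit (x axis) for the 12 members in the combined list (y axis), open circles for replicate 1 and filled circles for replicate 2, with 95% exact Poisson intervals as bars and the expected background as ticks. Replicate 2 had more fragments at all 9 import genes and at 2 of 3 carriers, as it had at 1392 of all 1529 bound genes. The intervals of the libraries overlap at every gene shown.

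The bound members were of ordinary strength. Their median fold was 7.43 in replicate 1 and 8.44 in replicate 2, where all 1529 bound genes had 7.75 and 8.72. Bound import genes had medians of 7.98 and 11.3, and bound carriers 6.88 and 5.34. The fold was higher in replicate 2 at 9 of 9 import genes, at 0 of 3 carriers and at 65.0% of all bound genes. The ratio of pileups, replicate 2 over replicate 1, had a median of 1.44 at import genes (1.28 to 1.66), 1.04 at carriers (0.864 to 1.40) and 1.30 over all bound genes. A combined-list score of at least 540 (the IDR at or under 0.05) was seen at 6 of 26 import genes (23.1%) and 0 of 47 carriers, against 3.13% of all genes. The 6 were Tomm6, Timm29, Tomm20, Tomm22, Timm17a and Timmdc1. Among bound genes alone, this score was reached by 66.7% of import genes, 0 of 3 carriers and 44.7% of all 1529.

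**Figure D3:**
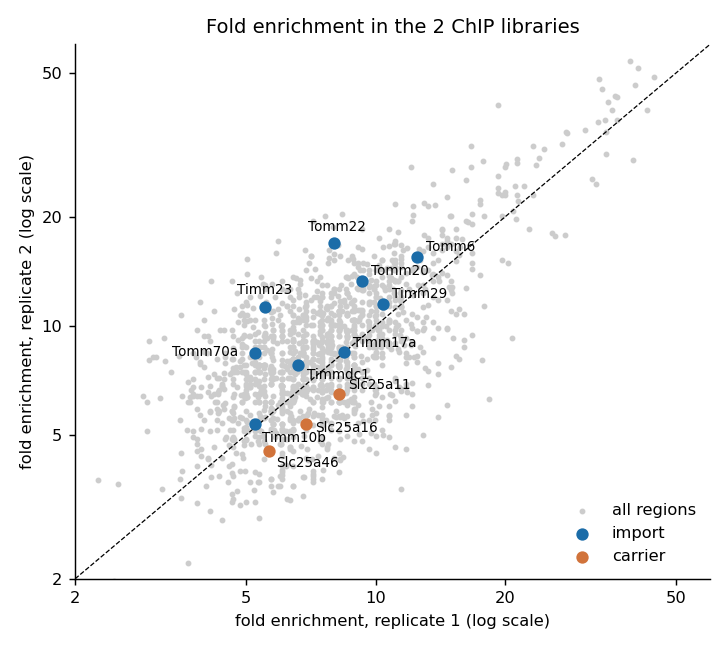
Fold enrichment of each of the 1550 combined regions in replicate 1 (x axis, log scale) and replicate 2 (y axis, log scale), with the 12 member genes named and the dashed line marking equal values. The members lie within the main cloud, the 9 import genes on or above the line and the 3 carriers below it.

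Deaf1 sat close to the start sites of most of these genes. The promoter table gave a strand for 11 of the 12 members in the combined list, and at all 11 the replicate 2 summit lay within 1 kb of an annotated start. Over all bound genes with a strand this share was 92.3%. At 8 of the 11 the distance was at most 100 bp (72.7%, against 66.7% of all bound genes). The median distance was 33.0 bp for members and 51.0 bp for all bound genes. Tomm22, Timm23, Tomm70a, Timm17a and Timm10b had their replicate 2 summits between 31 and 43 bp before the start. The replicate 2 peaks of Tomm5, Timm44, Timm8b and Timm10, which replicate 1 lacked, were 26, 26, 29 and 42 bp before it. The other members with a listed start and a peak in replicate 2 only had summits farther away. Those of Slc25a17, Timm22 and Tomm40 lay 93, 110 and 124 bp before the start. That of Slc25a53 lay 235 bp inside the gene, and that of Slc25a39 lay 1034 bp before the start. The summits of the 2 libraries lay a median of 13.5 bp apart at members and 11.0 bp apart over all bound genes.

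**Figure D4:**
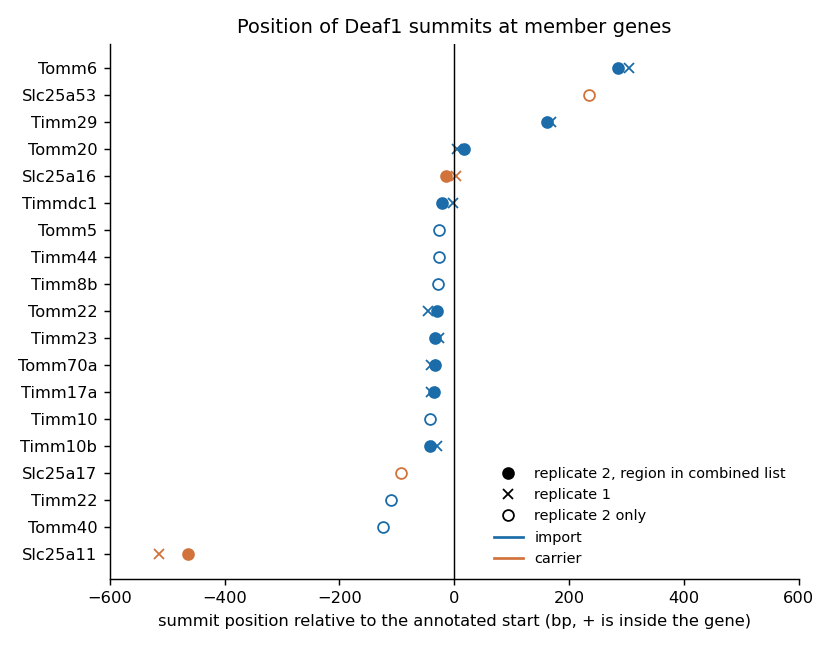
Distance of the summit from the annotated start (x axis, bp, positive inside the gene) for member genes with a known strand and a summit within 600 bp (y axis), with filled circles and crosses for replicates 2 and 1 of combined regions and open circles for peaks of replicate 2 only. Most summits fall just before the start. Tomm6, Slc25a53 and Timm29 lie 285, 235 and 161 bp inside the gene, and Slc25a11 lies 463 bp before the listed start. The replicate 2 peak of Slc25a39, 1034 bp before the listed start, is outside the range shown.

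Several of these regions lay near an end of another gene as well, which may be its start or its last base. Of the 9 bound import genes, 4 had another protein-coding gene end within 1 kb of the region (44.4%), as had 1 of the 3 bound carriers and 43.6% of all bound genes. Whatever their binding, 43.5% of import genes with a listed start had such a neighbour within 1 kb of it, against 8.33% of carriers and 13.9% of other genes. Import genes without a close neighbour were bound at 5 of 13 (38.5%), against 5.03% of all such genes, and those with one at 4 of 10 (40.0%), against 19.8%. For carriers these counts were 1 of 33 (3.03%) and 1 of 3 (33.3%). When a region was given only to the gene whose end was nearest to the summit, 6 import genes (23.1%) and 3 carriers (6.38%) stayed, against 5.54% of all genes. The genes lost were Timm10b, Timm23 and Timm29.

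The promoter windows of the members were also described by base composition and short motifs. Windows were found for 59 of the 73 members and 17492 of the 21887 genes, 1 per gene at its most upstream start. The median GC content was 58.7% in import genes, 60.2% in carriers and 56.3% over all windows. The median number of CG dinucleotides was 20 in 23 import genes, 17 in 36 carriers and 13.0 over all windows. Searched on both strands, TTCG occurred in 82.6% of import windows, 52.8% of carrier windows and 49.0% of all windows. The ETS-type CCGGAAG occurred in 43.5%, 19.4% and 11.9%. A palindromic motif of the NRF1 type occurred in no member's window and in 1.33% of all windows. The 59 windows are too few to tell its absence from that share. A match describes the letters of the window and does not show that a factor sits there.

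Of the motifs set against binding over all genes, CCGGAAG parted bound from unbound genes more widely than TTCG. Of all genes with it in the window, 30.8% were bound, and of those without it, 3.87%. Import genes were bound at 6 of 10 with it (60%) and 3 of 13 without it (23.1%), so their share stood above that of all genes in both groups. Carriers were bound at 0 of 7 with it and 2 of 29 without it (6.90%). Where TTCG was present 10.1% of all genes were bound, and where it was absent 4.16%. Import genes were bound at 8 of 19 with TTCG (42.1%) and 1 of 4 without it (25.0%). With 20 or more CG in the window, a split chosen after the values were seen, import genes were bound at 7 of 12 (58.3%) and all genes at 12.6%. With fewer CG, these were 2 of 11 (18.2%) and 4.0%. The part of motifs, CG number and neighbours in the counts of import genes was not tested.

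**Figure D5:**
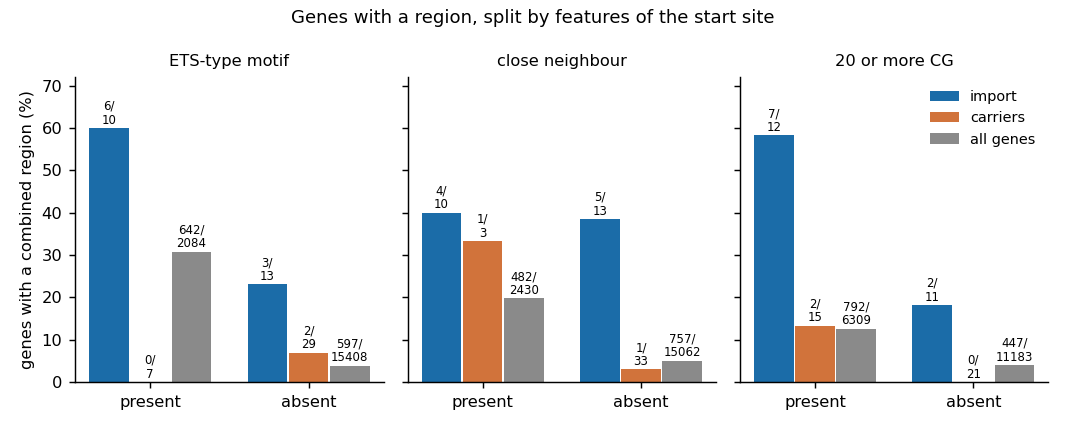
Share of genes with a combined region (y axis, percent) split by CCGGAAG in the promoter window (ETS-type motif), by another gene end within 1 kb of the start (close neighbour), and by 20 or more CG dinucleotides, for import genes, carriers and all genes; fractions give bound over all genes. In each split the import bar is above that of all genes, from 60% against 30.8% with the ETS-type motif to 18.2% against 4.0% with fewer CG.

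Around the summits themselves, TTCG was the less common of these motifs at member genes. For 7 members, 50 bases on each side of the replicate 2 summit lay inside the promoter window. Of these, Tomm22 alone had TTCG in those 101 bases, while Tomm22, Tomm70a, Timm23 and Timmdc1 had CCGGAAG. Over all 717 bound genes of this kind, 35.8% had TTCG and 57.9% had CCGGAAG. In unbound genes, 101 bases from 83 before to 18 after the start had TTCG in 19.7% and CCGGAAG in 5.08%. The shorter core CGGAAG, looked at after the sequences were seen, was present at 6 of the 7 members and at 76.0% of the 717 genes, against 9.52% of unbound genes. In the sequences printed above it appears, for example, as cggaag in Timm23 and as its complement cttccg in Timm17a.

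Other genes of the same or related pathways were listed by role and not by prefix. The import list was drawn by hand and also takes in cristae proteins, which are not import machinery in the strict sense. Of 29 further import genes (processing peptidases, matrix chaperones, sorting and cristae proteins), 7 had a combined region (24.1%, against 6.99% of all genes). At a score of at least 540 there were 3 (10.3%, against 3.13%). With a −log10 q of at least 5 in both replicates there were 5 (17.2%, against 6.26% of other genes outside the prefixes). With the nearest gene end only there were also 5 (17.2%, against 5.54% of all genes). The 7 were Immt, the core of the cristae-organising complex (folds 14.6 and 9.86), its partner Chchd3 (7.85 and 11.3), the inner membrane protein Romo1 (8.21 and 11.0), Mtx1 of the outer membrane sorting machinery (6.42 and 6.51), Samm50, its channel (4.95 and 3.97), and the chaperonin pair Hspd1 and Hspe1, which share 1 region (4.68 and 5.96). Grpel2, Pmpca and Pmpcb had a peak in replicate 2 only, and Cox18 in replicate 1 only. Over all 21887 genes, 4.26% had a peak in replicate 2 only and 120 genes had one in replicate 1 only. Replicate 2 had a peak at 10 of the 29 (34.5%), against 11.2% of all genes. Of 20 further transport genes (pyruvate and calcium transporters, uncoupling proteins, sideroflexins, porins), only the pyruvate carrier subunit Mpc2 was bound (5.00%), with folds of 6.87 and 7.81. Neither the porin genes Vdac1, Vdac2 and Vdac3 nor the uncoupling protein genes had a peak at an end.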

How the data were processed

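Deaf1 ChIP-seq was analysed from 2 peak lists and 1 combined list; the input libraries' own values were not analysed here. FastQC 0.11.8, BWA 0.7.17-r1198, MACS2 2.1.2 and the build mm10 are named in the submitters' processing notes, without settings. In each deposited peak list the fold is a ratio, ChIP signal over the background expected locally, and p and q are −log10 values of the authors' peak caller. Peaks were called per ChIP library, as the deposited lists show. The deposited summit offset, in bases from the peak start, gave the summit. The deposited score of the combined list is a log2-scaled IDR (within 2.99 of the rounded IDR column), 1 value for the pair, and its 6 columns of single-sample values were not used. How the combined list was made is not given in the sources used here.

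From these values, pileups were recovered with fold = (pileup + 1)/(background + 1) and p as the Poisson probability of more than the pileup; 1 whole number matched at 100% of peaks (error in −log10 p at most 5.1e-05). On simulated data 986 of 986 pileups and 16 of 16 distances were right. Intervals are exact Poisson at 95% and cover counting error only, since removal of duplicates is not stated. Genes are RefSeq spans on GRCm38.p6 (the assembly of mm10), which mix transcription starts and ends; strand came from the promoter table. A member's value is that of the strongest peak. Members, lists and motifs were chosen with earlier results of these data known. Named genes were all members with a peak at an end, except 1 that is not reported here; no member had a region in its span alone (0). Promoters printed were to be the strongest whose region overlapped the window; the demand that the summit lie in it, and leaving out bases inside annotated spans, were added after the values were seen. Python 3.11.15, pandas 2.3.3 and scipy 1.17.1 were used. Alternatives changed the list, threshold, distance and gene part.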

Additional observations from a re-analysis of the deposited data

How the results depend on the processing

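The alternative without Timmdc1 was chosen after seeing the data, and the others were planned. Counts of bound import, carrier and other genes stayed within 1.5 times under a −log10 q of at least 5, windows of 500 bp or 5 kb, the whole span, the annotated start, the summit, the nearest end and, for import genes, the removal of Timmdc1. Without replicate 1 or 2, import genes ran from 9 to 15, carriers from 3 to 10, other genes from 1635 to 2436, the further import genes from 8 to 10 and the members' median fold from 7.43 to 8.44. At an IDR score of at least 540, carriers fell from 3 to 0, other genes from 1517 to 679 and the further import genes from 7 to 3, while import genes went from 9 to 6. The members' median fold went from 7.89 to 11.1, since only the 6 members with the best scores were left. With the nearest end only, the further transport genes fell from 1 to 0, because Mpc2 was then not the nearest gene. Of the members, Slc25a46 alone left the count at 500 bp. TTCG was found in 64.4% of members' windows and in 62.7% when the 50 bases after the start were left out. No paired analysis was possible because only the ChIP libraries, which form 1 group, have peak lists here. At 18 to 58 fragments per summit at bound import genes, counting error limits comparison between the libraries.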
